A study of Homo sapiens with 4 samples.

Results

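Nuclear receptors are transcription factors that most often carry a zinc finger DNA-binding domain and a ligand-binding domain, so that a hormone, vitamin, lipid or drug can change the transcription of their target genes. The 45 genes described here were chosen by name as members of the family, and the background of the deposited gene ontology (GO) tables held 22148 genes. They fell into 8 groups by role, namely lipid, bile acid and xenobiotic sensors, retinoid X receptors, receptors for thyroid hormone, retinoic acid and vitamin D, steroid receptors, NR4A genes, clock receptors, orphan receptors and NR0B genes.

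HepG2 and Huh7, established human cell lines labelled as hepatocellular carcinoma, were sequenced before and after sonodynamic therapy (SDT), in which low-frequency ultrasound activates a sensitizer. Group A was untreated HepG2 cells and group B was HepG2 cells after SDT, whereas group C was untreated Huh7 cells and group D was Huh7 cells after SDT. The treated groups received HMME-LND@C3F8-NBs, gas-filled lipid nanobubbles that carry the sensitizer hematoporphyrin monomethyl ether (HMME) together with lonidamine (LND), an inhibitor of tumour energy metabolism. Each of the 4 groups was 1 library of total RNA depleted of ribosomal RNA, and no sequenced group received ultrasound, bubbles or LND alone, so the parts of the treatment cannot be told apart.

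The deposited tables gave no expression level for any gene. A gene was called listed in a cell line when its Ensembl identifier stood under at least 1 GO row of the comparison of treated with untreated cells, which means that it was called differentially expressed at an adjusted p-value threshold of 0.05 and carried a GO annotation. The tables did not say whether a listed gene rose or fell. For a gene that was not listed, no expression, no change and a change too small to detect cannot be told apart. The level of a listed gene is unknown too, and it may have been close to no expression. This holds also for listed genes described below by their roles in other tissues, such as RORB, NR2E1, NR2E3 and NR5A1. With 1 library per group, no difference had a replicate check. No comparison between groups of genes was tested, and without expression levels the labelled cell type could not be checked against markers.

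In liver cells, nuclear receptors for bile acids, fatty acids, oxysterols and foreign chemicals adjust the enzymes and transporters that handle these molecules. Many of them pair with a retinoid X receptor and bind repeats of the half-site AGGTCA, where ligand exchanges corepressors for coactivators. Other members act without a known hormone, such as the NR4A genes, which are induced within the immediate early response to stress and growth signals, and the REV-ERB and ROR receptors of the circadian clock.

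After SDT, 12 of the 45 nuclear receptor genes were listed in HepG2 cells, or 26.7%, where 21.6% of all background genes were listed (4783 of 22148). Without 15 members that overlap a gene on the opposite strand, described last, the HepG2 share was 20%, below that of all genes. In Huh7 cells 15 of the 45 were listed, or 33.3%, beside 19.7% of all genes (4369 of 22148). Among genes under the GO term for sequence-specific DNA binding transcription factors, the like-for-like background, 23.5% were listed in HepG2 (437 of 1858) and 20.8% in Huh7 cells (386 of 1858). The share of nuclear receptors was thus close to that of all genes under this term in HepG2 cells and above it in Huh7 cells. Neither difference was tested, nor was any difference between the cell lines. The term includes the listed nuclear receptors themselves. A total of 7 members were listed in both cell lines: NR1H4, THRA, RARA, NR4A1, NR1D1, RORB and NR2E1. They made up 58.3% of the members listed in HepG2 cells and 46.7% of those listed in Huh7 cells. Without the 15 members that overlap a gene on the opposite strand, 3 were listed in both, namely NR1H4, RORB and NR2E1. These were 3 of 6 members listed in HepG2 and 3 of 10 in Huh7 cells. Over all genes, 2281 were listed in both cell lines, or 47.7% of the HepG2 list and 52.2% of the Huh7 list. Another 5 members were listed in HepG2 cells alone, 8 in Huh7 cells alone and 25 in neither.

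**Figure D1:**
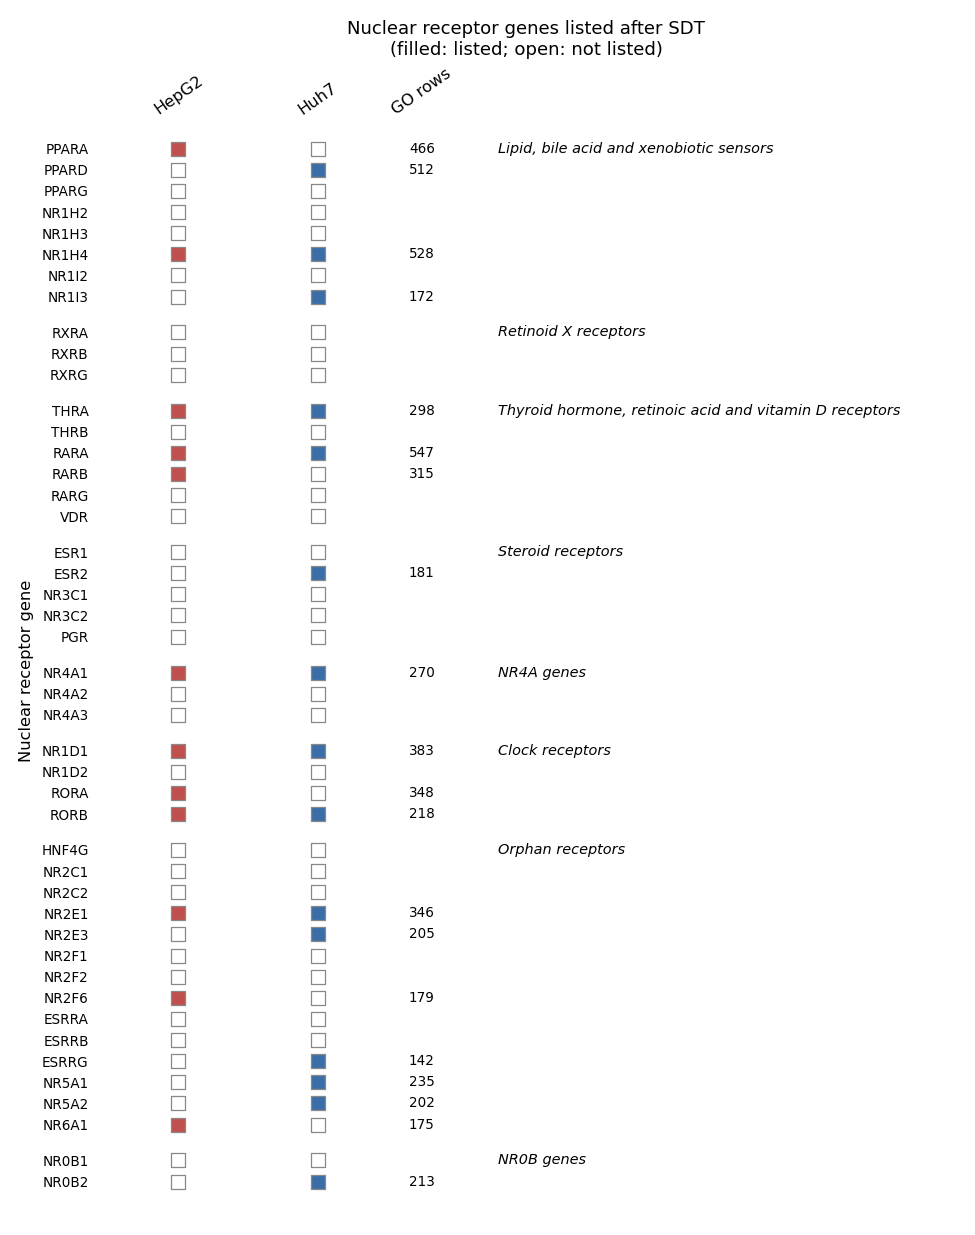
Listing of each of the 45 nuclear receptor genes in HepG2 and Huh7 cells after SDT, by role; a filled square marks a listed gene, and the number beside it is how many GO rows named the gene. The column for HepG2 cells has 12 filled squares and that for Huh7 cells has 15, with 7 genes filled in both.

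The lipid, bile acid and xenobiotic sensors had 2 of 8 genes listed in HepG2 and 3 of 8 in Huh7 cells. Without NR1H3 and NR1I3, which overlap a gene on the opposite strand, 2 of 6 were listed in each. NR1H4 (ENSG00000012504), the farnesoid X receptor that senses bile acids and limits their synthesis, was listed in both and stood under 528 GO rows in each table. The PPAR family senses fatty acids. PPARA (ENSG00000186951), which drives fatty acid oxidation and ketone production in liver, was listed in HepG2 cells and not in Huh7 cells, under 466 GO rows and 5 KEGG pathways. PPARD (ENSG00000112033), the broadly expressed member, was listed in Huh7 cells and not in HepG2 cells, under 512 GO rows and 4 KEGG pathways. PPARG, the adipocyte regulator, was listed in neither. The constitutive androstane receptor NR1I3 (ENSG00000143257), which induces drug-metabolising enzymes, was listed in Huh7 cells only, whereas its partner in xenobiotic sensing, the pregnane X receptor NR1I2, was listed in neither. The oxysterol sensors NR1H2 and NR1H3, the liver X receptors, were also in neither list.

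The promoters shown here and for RARA and NR2E1 are those of members listed in both cell lines whose 250 bases before a start hold the half-site that nuclear receptors bind. No window of THRA, NR4A1, NR1D1 or RORB, the other members in both lists, holds it. The NR1H4 window is the 250 bases before the start of the gene in RefSeq (GRCh38.p14, chr12:100503110-100503359, + strand), with 42% G and C. Capitals mark AGGTCA read on the opposite strand, which begins 230 bases before the start.
NR1H4: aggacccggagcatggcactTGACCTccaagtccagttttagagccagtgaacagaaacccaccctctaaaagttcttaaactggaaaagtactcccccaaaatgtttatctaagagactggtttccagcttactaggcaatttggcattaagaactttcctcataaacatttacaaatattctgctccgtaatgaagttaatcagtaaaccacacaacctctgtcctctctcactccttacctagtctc

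All 3 retinoid X receptors, RXRA, RXRB and RXRG, were absent from both lists. These genes encode the shared partner with which many of the listed members form heterodimers, among them NR1H4, PPARA, PPARD, NR1I3, THRA, RARA and RARB.

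The receptors for thyroid hormone, retinoic acid and vitamin D had 3 of 6 genes listed in HepG2 and 2 of 6 in Huh7 cells. Each of the listed genes, THRA, RARA and RARB, has exons that overlap a gene on the opposite strand, as do THRB and VDR, and RARG, the gene without such an overlap, was not listed. THRA (ENSG00000126351), a thyroid hormone receptor, was listed in both cell lines, and its paralog THRB, the main form in liver, in neither. RARA (ENSG00000131759), a retinoic acid receptor, was listed in both and stood under 547 GO rows, the most of the 20 listed members. This number follows how fully a gene is annotated, and for each member in both lists it was the same in both tables. RARB (ENSG00000077092), itself a known target of retinoic acid, was listed in HepG2 cells only. RARG, the other retinoic acid receptor, and the vitamin D receptor VDR were in neither list.

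The RARA window with the half-site, from 1 of its 3 starts, lies on the + strand at chr17:40308930-40309179 (RefSeq, GRCh38.p14), has 56.4% G and C, and holds AGGTCA in the direction of the gene, in capitals, beginning 230 bases before the start.
RARA: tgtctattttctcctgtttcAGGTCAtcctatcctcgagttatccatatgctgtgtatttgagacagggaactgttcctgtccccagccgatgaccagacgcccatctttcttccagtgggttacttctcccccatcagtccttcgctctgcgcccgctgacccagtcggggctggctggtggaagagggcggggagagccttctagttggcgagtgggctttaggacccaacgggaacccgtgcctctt

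Steroid receptors had 0 of 5 genes listed in HepG2 and 1 of 5 in Huh7 cells. The listed gene was ESR2 (ENSG00000140009), estrogen receptor beta, under 181 GO rows and 2 KEGG pathways. Estrogen receptor alpha (ESR1), the glucocorticoid receptor NR3C1, the mineralocorticoid receptor NR3C2 and the progesterone receptor PGR were in neither list.

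Only NR4A1 (ENSG00000123358) was listed among the NR4A genes, in both cell lines, under 270 GO rows and 2 KEGG pathways. NR4A1, also called NUR77, is an immediate early gene whose product can act in apoptosis as well as in transcription. Its paralogs NR4A2 and NR4A3, which many stimuli induce along with it, were in neither list. NR4A1 also overlaps a gene on the opposite strand, so no listed NR4A gene is free of such an overlap.

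Clock receptors had 3 of 4 genes listed in HepG2 and 2 of 4 in Huh7 cells. Without NR1D1 and RORA, which overlap a gene on the opposite strand, 1 of 2 was listed in each. NR1D1 (ENSG00000126368), or REV-ERB alpha, represses the clock gene BMAL1 and was listed in both cell lines under 383 GO rows. RORB (ENSG00000198963), a receptor of the retina and brain that activates through the same DNA elements, was also listed in both. RORA (ENSG00000069667), the broadly expressed activator of BMAL1, was listed in HepG2 cells only, under 348 GO rows. NR1D2, or REV-ERB beta, was in neither list.

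**Figure D2:**
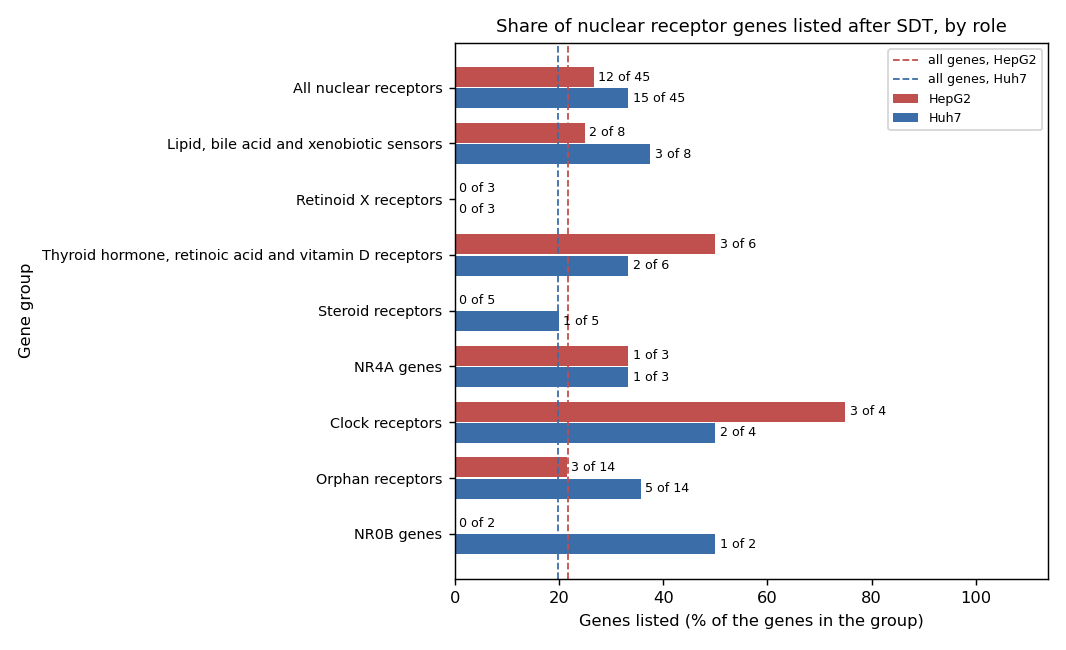
Percent of the genes of each nuclear receptor group that were listed in HepG2 (red bars) and Huh7 (blue bars) cells after SDT, with the counts beside the bars; dashed lines mark the share of all background genes, 21.6% in HepG2 and 19.7% in Huh7 cells. Clock receptors have 3 of 4 and 2 of 4 listed, and retinoid X receptors have none.

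Orphan receptors, for which no hormone is established, had 3 of 14 genes listed in HepG2 and 5 of 14 in Huh7 cells. NR2E1 (ENSG00000112333), or TLX, which maintains neural stem cells, was the only one in both lists, under 346 GO rows. Its photoreceptor paralog NR2E3 (ENSG00000278570) was listed in Huh7 cells only. NR2F6 (ENSG00000160113), a COUP family repressor, and NR6A1 (ENSG00000148200), the germ cell nuclear factor, were listed in HepG2 cells only. ESRRG (ENSG00000196482), a regulator of mitochondrial genes, was listed in Huh7 cells only. Both NR5A genes were listed in Huh7 cells and neither in HepG2 cells. NR5A2 (ENSG00000116833), the liver receptor homolog, acts in bile acid and cholesterol metabolism, and NR5A1 (ENSG00000136931) is the steroidogenic factor of adrenal and gonad. The members in neither list were HNF4G, the testicular receptors NR2C1 and NR2C2, the COUP transcription factors NR2F1 and NR2F2, and the estrogen-related receptors ESRRA and ESRRB.

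The NR2E1 window with the half-site lies on the + strand at chr6:108167773-108168022 (RefSeq, GRCh38.p14) and has 46.8% G and C. Capitals mark AGGTCA on the opposite strand, beginning 48 bases before the start, and the letters around it complete AAAGGTCA, the element that NR4A proteins bind as monomers.
NR2E1: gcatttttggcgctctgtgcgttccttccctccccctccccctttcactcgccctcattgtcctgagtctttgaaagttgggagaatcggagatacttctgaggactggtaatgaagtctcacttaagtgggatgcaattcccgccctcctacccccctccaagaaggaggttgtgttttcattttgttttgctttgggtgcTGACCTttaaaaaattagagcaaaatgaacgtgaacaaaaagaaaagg

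NR0B genes encode receptors without a zinc finger domain, which repress other receptors by binding to them. NR0B2 (ENSG00000131910), the small heterodimer partner that is induced by NR1H4 and restrains NR5A2 in bile acid synthesis, was listed in Huh7 cells only, as was NR5A2. NR0B1, or DAX1, was in neither list. In HepG2 cells NR1H4 was listed without NR0B2 or NR5A2.

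Closely related receptors were compared in 17 sets of 2 or 3 paralogs, which were made after the values had been seen. HepG2 cells had 8 sets with no listed gene, 7 with 1 and 2 with more than 1. The last were the retinoic acid receptors (RARA and RARB) and the pair RORA and RORB. Huh7 cells had 4 sets with no listed gene, 11 with 1 and 2 with more than 1, namely the NR2E pair and the NR5A pair. In 3 sets no gene was in either list: the retinoid X receptors, the corticosteroid and progesterone receptors, and the testicular receptors. In 3 other sets every gene was listed in at least 1 cell line, and these were RORA with RORB, the NR2E pair and the NR5A pair.

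Immediate early genes that accompany NR4A1 had 7 of 8 genes listed in HepG2 and 8 of 8 in Huh7 cells. The transcription factors EGR1, EGR3, FOS, FOSB, JUN and JUNB and the regulator IER2 were in both lists, and EGR2 was listed in Huh7 cells only. NR4A1 was thus listed in each cell line together with most of these genes, and NR4A2 and NR4A3 were listed with them in neither. How long after treatment RNA was isolated is not given in the sources used here, for these genes or any others.

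Coregulators carry the signal of a receptor to chromatin. The coactivators had 3 of 11 genes listed in HepG2 and 0 of 11 in Huh7 cells. The listed genes were NCOA3, a p160 coactivator, PPARGC1B, a coactivator of mitochondrial genes, and MED1, the Mediator subunit that contacts receptors. In neither list were NCOA1, NCOA2, NCOA6, PPARGC1A, the acetyltransferases CREBBP and EP300, and the arginine methyltransferases CARM1 and PRMT1. Corepressors had 1 of 8 genes listed in HepG2 and 2 of 8 in Huh7 cells. TBL1XR1, a subunit of the NCOR complex, was in both lists, and the deacetylase HDAC3 was in the Huh7 list only. NCOR1, TBL1X, GPS2, NRIP1, LCOR and SIN3A were in neither.

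Clock partners and targets had 7 of 15 genes listed in HepG2 and 3 of 15 in Huh7 cells. PER1, a repressor that responds to stress as well as time of day, was the only gene in both lists. The activators CLOCK and BMAL1 (also named ARNTL) were listed in HepG2 cells only, and HLF, a D-box activator, and BHLHE41, a repressor, in Huh7 cells only. The other 4 genes of the HepG2 list, named here after their values had been seen, were the repressors CRY1 and CIART, the D-box activator TEF and the D-box repressor NFIL3. PER2, PER3, CRY2, NPAS2, DBP and BHLHE40 were in neither list. The KEGG circadian rhythm pathway had 9 of 31 genes listed in HepG2 cells, with NR1D1, RORA and RORB among them, and 6 of 31 in Huh7 cells, with NR1D1 and RORB. Under the wider GO term for circadian rhythm, 58 of 195 genes were listed in HepG2 (29.7%) and 42 of 195 in Huh7 cells (21.5%).

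Bile acid receptor targets had 4 of 7 genes listed in each cell line, and 2 of these 4 were in both lists. This overlap, 50% of each, was near that of all genes, 47.7% of the HepG2 list and 52.2% of the Huh7 list. SLC10A1, which imports bile acids into hepatocytes, and SLC51B, a subunit of the basolateral exporter, were in both lists. CYP7A1, the rate-limiting enzyme of bile acid synthesis, and ABCB4, the phospholipid transporter of bile, were listed in HepG2 cells only. ABCB11, the bile salt export pump, and FGF19, the hormone that represses CYP7A1, were listed in Huh7 cells only. SLC51A, the other subunit of the exporter, was in neither. The KEGG bile secretion pathway held 22 of 72 genes in HepG2 cells, with NR1H4, and 29 of 72 in Huh7 cells, with NR1H4 and NR0B2. Under the GO term for bile acid metabolic process, 14 of 47 genes were listed in HepG2 (29.8%) and 18 of 47 in Huh7 cells (38.3%), and NR5A2 was a member under it in Huh7 cells only.

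Xenobiotic receptor targets had 3 of 8 genes listed in HepG2 and 5 of 8 in Huh7 cells. NR1I3 was also listed in Huh7 cells, but 20% of its exonic bases overlap TOMM40L on the opposite strand. A link between NR1I3 and these targets was not tested. The cytochromes CYP2B6 and CYP3A7 were in both lists. CYP2C8 was listed in HepG2 cells only, and CYP3A5, the bilirubin conjugating enzyme UGT1A1 and the drug exporter ABCB1 in Huh7 cells only. CYP3A4, the main drug-metabolising cytochrome of adult liver, and ALAS1, the enzyme that starts heme synthesis, were in neither. The GO term for xenobiotic metabolic process had 26 of 112 genes listed in HepG2 (23.2%) and 43 of 112 in Huh7 cells (38.4%).

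PPAR targets had 3 of 8 genes listed in HepG2 and 4 of 8 in Huh7 cells, although a different PPAR gene was listed in each. ANGPTL4, an inhibitor of lipoprotein lipase, FGF21, a fasting hormone, and PLIN2, a lipid droplet coat protein, were in both lists. FABP1, the liver fatty acid binding protein, was listed in Huh7 cells only. The oxidation genes ACADM, CPT1A and CYP4A11 and the kinase PDK4 were in neither. Liver X receptor targets had 2 of 9 genes listed in each cell line. ABCG1, a cholesterol exporter, was in both lists, APOE in the HepG2 list and ABCG5 in the Huh7 list. The exporters ABCA1 and ABCG8, the lipogenic genes SREBF1 and SCD, LPCAT3 and MYLIP were in neither, as were the liver X receptors.

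Glucocorticoid receptor targets had the same 3 of 8 genes in both lists: DUSP1, a phosphatase that ends MAP kinase signals, TSC22D3, or GILZ, and PER1. FKBP5, SGK1, TAT, PCK1 and ZBTB16 were in neither. Estrogen receptor targets had 2 of 5 genes listed in each cell line. GREB1 and XBP1 were listed in HepG2 cells, TFF1 and PDZK1 in Huh7 cells, and IGFBP4 in neither. Retinoic acid and vitamin D targets had 2 of 8 and 4 of 8. CYP24A1, the enzyme that degrades active vitamin D, was in both lists although VDR was in neither. STRA6, a retinol transporter, was listed in HepG2 cells only. CYP26A1, which degrades retinoic acid, CRABP2, which carries it to its receptor, and TGM2 were listed in Huh7 cells only. CYP26B1, DHRS3 and CAMP were in neither. Thyroid hormone targets had 3 of 5 in HepG2 and 1 of 5 in Huh7 cells. The corepressor HR was in both lists, THRSP and KLF9 in the HepG2 list, and DIO1 and ME1 in neither.

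Enzymes that make or remove the ligands had 5 of 17 genes listed in HepG2 and 4 of 17 in Huh7 cells. The deiodinases DIO2, which activates thyroid hormone, and DIO3, which inactivates it, were in both lists. HepG2 cells had ALDH1A3 of retinoic acid synthesis and HSD11B2, which inactivates cortisol, and Huh7 cells had ALDH1A1 and the steroid enzyme HSD17B2. The fifth gene of the HepG2 list, named after its value had been seen, was the retinol dehydrogenase RDH16. In neither list were the retinoid genes ALDH1A2, RDH10 and BCO1, the sterol and vitamin D hydroxylases CYP27A1, CYP27B1 and CYP2R1, and the steroid enzymes CYP19A1, HSD11B1, HSD17B1 and SRD5A1.

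**Figure D3:**
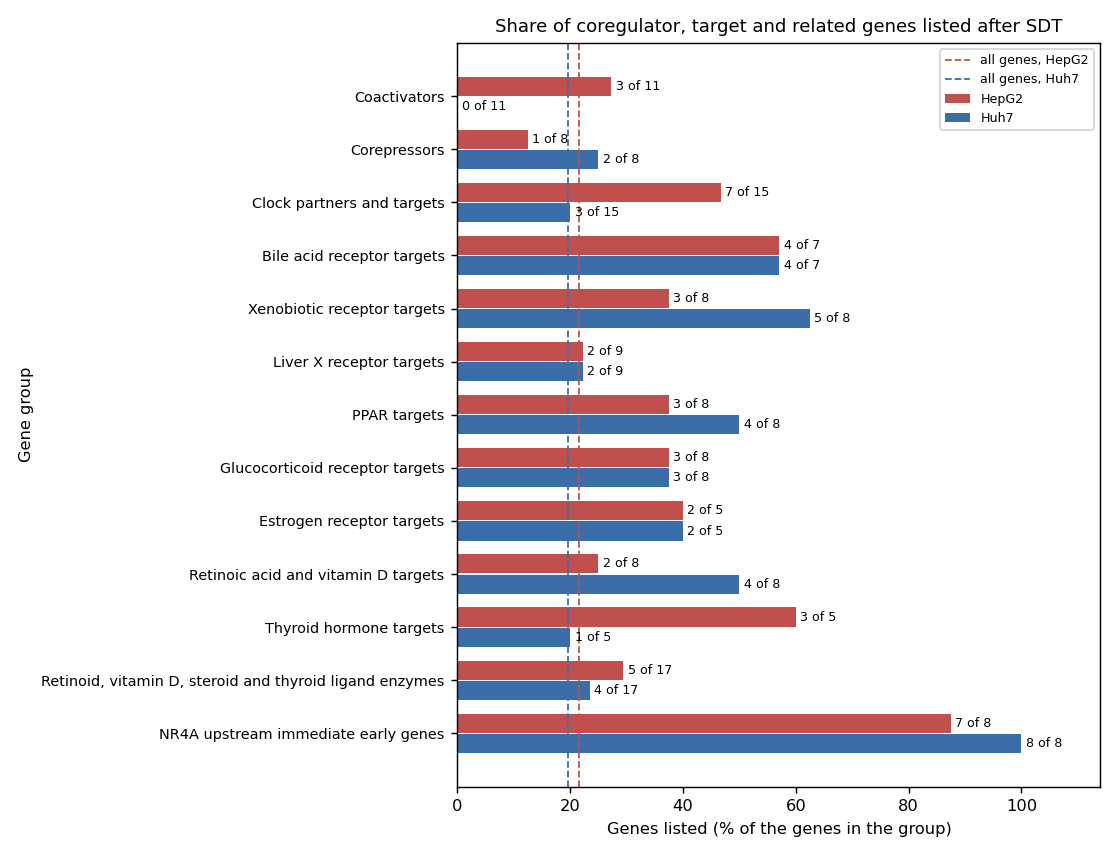
Percent of genes listed in HepG2 (red bars) and Huh7 (blue bars) cells after SDT in 13 lists of coregulators, partners, targets, ligand enzymes and immediate early genes, with counts beside the bars; dashed lines mark the share of all background genes. Immediate early genes reach 7 of 8 and 8 of 8, and coactivators have 3 of 11 in HepG2 cells and none in Huh7 cells.

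The 13 lists together held 116 genes, of which 44 were listed in HepG2 (37.9%) and 41 in Huh7 cells (35.3%). These shares were above 21.6% and 19.7% of all genes, and were not tested. The background may include genes that these cells do not express.

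The GO tables placed every listed member under 1 receptor term, steroid hormone receptor activity, although many of them bind no steroid. It had 16 of 60 genes listed in HepG2 cells (26.7%), of which 12 are described here, and 18 of 60 in Huh7 cells (30%), of which 15 are. The others were not analysed here. Some placements do not match the ligand of the gene. Under thyroid hormone receptor activity, with 3 of 8 genes in each table, stood NR1H4 and NR2F6 beside THRA in HepG2 cells, and NR1H4 and NR1I3 beside THRA in Huh7 cells. Under retinoic acid receptor activity, with 2 of 12 genes in each, stood ESRRG beside RARA in Huh7 cells. Proteins that bind nuclear hormone receptors had the same count in both tables, 30 of 152, or 19.7%, which is near the share of all genes.

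Retinoic acid binding had 2 of 19 genes listed in HepG2 (10.5%) and 7 of 19 in Huh7 cells (36.8%), and bile acid binding had 2 of 9 and 5 of 9, with RARA and NR1H4 respectively as the member in each table. Other retinoid terms had closer shares in the cell lines, with 31 of 115 (27%) in each for response to retinoic acid, 5 of 37 (13.5%) in each for the retinoic acid receptor signaling pathway, and 22 of 64 (34.4%) and 24 of 64 (37.5%) for the KEGG pathway of retinol metabolism. Response to steroid hormone stimulus had 133 of 444 (30%) and 128 of 444 (28.8%), above the share of all genes, and the intracellular steroid hormone receptor signaling pathway had 26 of 152 (17.1%) and 28 of 152 (18.4%), below it. Thyroid hormone receptor binding had 8 of 29 (27.6%) and 4 of 29 (13.8%). Response to vitamin D had 16 of 36 (44.4%) and 14 of 36 (38.9%) with none of the 45 members among the listed genes. The KEGG pathways of PPAR signaling (17 and 19 of 69) and thyroid hormone signaling (35 and 31 of 119) had similar counts in HepG2 and Huh7 cells. In the first the member was PPARA in HepG2 cells and PPARD in Huh7 cells, and in the second it was THRA in both. Estrogen signaling had 27 and 32 of 100 genes, with ESR2 as a member in Huh7 cells. Steroid hormone biosynthesis had 14 of 57 in HepG2 (24.6%) and 25 of 57 in Huh7 cells (43.9%), and primary bile acid biosynthesis had 3 of 17 and 6 of 17. KEGG shares rest on another set of annotated genes than the GO shares.

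**Figure D4:**
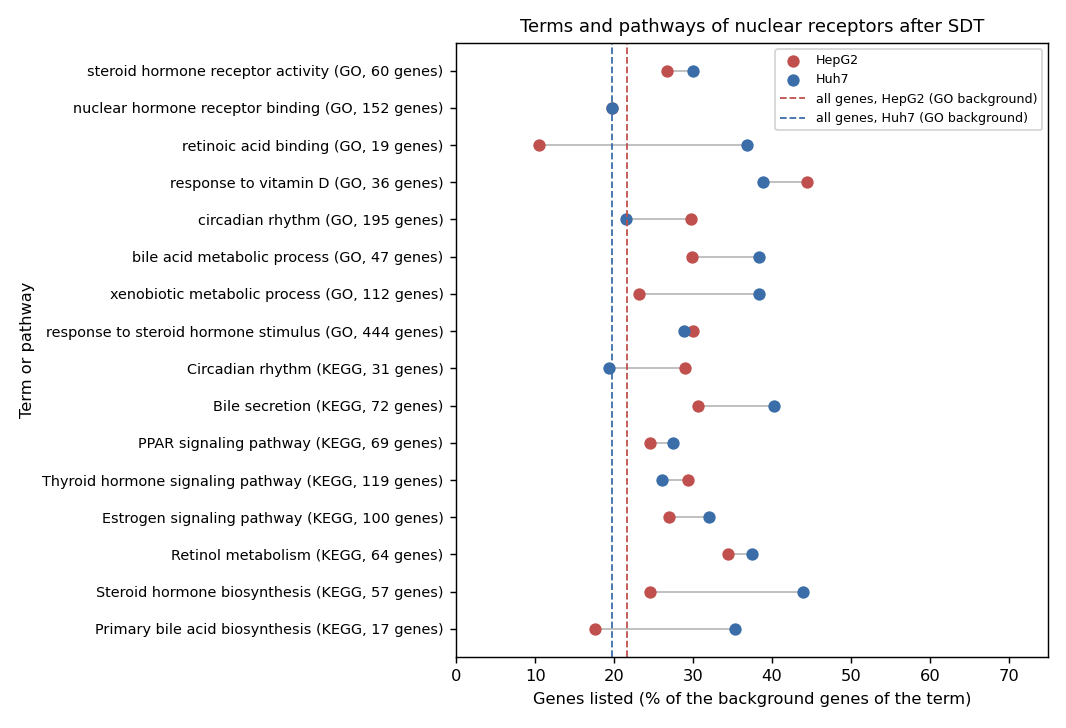
Percent of the background genes of each GO term or KEGG pathway that were listed in HepG2 (red points) and Huh7 (blue points) cells; dashed lines mark the share of all genes in the GO background. The points coincide at 19.7% for nuclear hormone receptor binding and lie far apart for retinoic acid binding, at 10.5% in HepG2 and 36.8% in Huh7 cells.

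Promoters of 300 bases, from 250 before to 50 after each start, were found in RefSeq (GRCh38.p14) for 40 of the 45 members, with 94 starts in all. There was no entry for HNF4G, NR0B2, NR2F6, NR4A2 and VDR. The half-site AGGTCA, searched on both strands, was in 16 of the 94 windows, or 17%, and in 4857 of all 35116 windows, or 13.8%. Members listed in at least 1 cell line held it in 10 of 39 windows (25.6%), from 7 of 18 genes: NR1H4, RARA, NR2E1, RARB, ESR2, ESRRG and NR5A2. Members in neither list held it in 6 of 55 windows (10.9%), from 4 of 22 genes: NR1H3, PPARG, RXRG and NR0B1. Windows of neighbouring starts of ESR2 and of PPARG overlap, so that 1 match can count more than once, and the difference was not tested. AAAGGTCA, which contains the half-site, was in 4 of the 94 windows (4.26%) against 1.22% of all, in NR2E1, ESR2, ESRRG and PPARG. CACGTG, the E-box bound by CLOCK and BMAL1, was in 9 of 94 (9.57%) against 7.26% of all. Overlapping windows of ESR2 and of PGR each count 1 E-box more than once here too. A pair of E-boxes stood before 1 start of NR1D2, at 105 and 155 bases, and before 1 start of NR2F2, at 121 and 178 bases. No window of a member held TCAAGGTCA, which also contains the half-site and is in 0.353% of all windows. None held 2 copies of AGGTCA in the same direction spaced by 0 to 5 bases, an arrangement that at most 8 of all windows had at any 1 spacing. Median G and C content was 57.7% in windows of listed members, 61% in those of members in neither list and 58.7% in all windows. THRA and PPARA had the windows richest in G and C among listed members, with up to 86.3% and 86.7%.

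The longest annotated transcript (GENCODE release 29) had a median of 3493 bases for the 20 members listed in at least 1 cell line and 4417 bases for the 25 in neither list. For all protein-coding genes the order was the opposite, with 3302 bases for listed genes and 3079 for the others. NR0B2, with 1156 bases, was the shortest member, and PGR, with 13748, the longest. Members listed in HepG2 cells only had the highest median, 7031 bases, from 5 genes that include RORA with 10844 and PPARA with 9995.

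**Figure D5:**
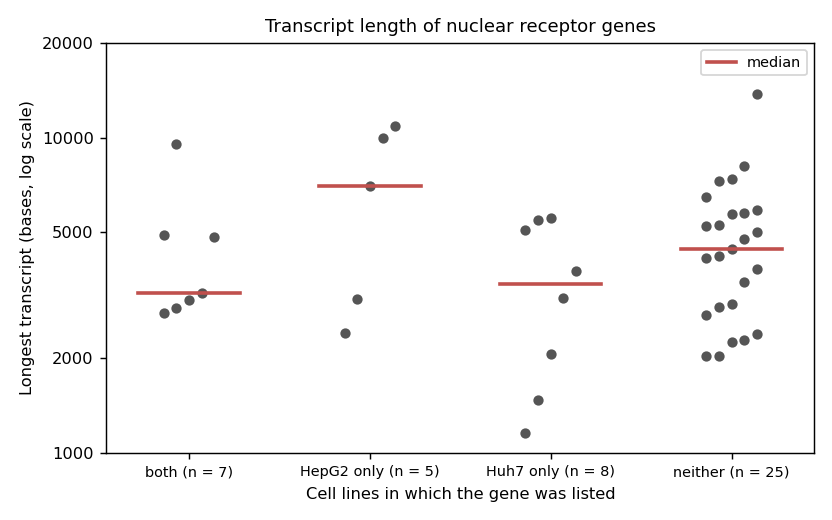
Longest annotated transcript of each nuclear receptor gene in bases (log scale), by the cell lines in which it was listed; each point is a gene and the red line is the median. The medians are 3212 bases for 7 genes in both lists, 7031 for 5 in HepG2 only, 3439 for 8 in Huh7 only and 4417 for 25 in neither.

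Overlapping genes limit what some listings show. THRA and NR1D1, both listed in both cell lines, lie tail to tail on opposite strands and share 263 exonic bases, which is 3.78% of the exonic bases of THRA and 9.49% of those of NR1D1. Other members in both lists overlap more with noncoding genes on the opposite strand, RARA by 556 bases (11.8%) with RARA-AS1 and NR4A1 by 754 bases (10.3%) with AC025259.3. In HepG2 cells the listed RORA shares 564 bases (3.31%) with RORA-AS1 and RARB 28 bases (0.757%) with TOP2B. NR1I3 shares 661 exonic bases, or 20%, with TOMM40L on the opposite strand. In all, 15 members overlap a gene on the opposite strand, and 6 of these were listed in HepG2 and 5 in Huh7 cells. The library kit marked the strand, but whether reads were counted by strand is not given in the sources used here. Without these 15 members, 6 of 30 were listed in HepG2 cells (20%), below rather than above the 21.6% of all genes, 10 of 30 in Huh7 cells (33.3%) and 3 in both. The listed members left include 2 that overlap a gene on the same strand. NR2F6 shares 221 exonic bases (8.26%) with AC010646.1, and ESR2 shares 523 (5.6%) with AL161756.1. In 35 of the 45 members no stretch of 75 bases occurs in a transcript of another gene on the same strand. The lowest share of such unique stretches was 94.3%, for NR2F6. Neither exon overlap nor shared stretches were examined for genes of the other lists, such as the cytochromes and UGT1A1, so their listings lack this check.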

How the data were processed

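Total RNA of 4 libraries, 1 per group, was depleted of ribosomal RNA and prepared with a strand-marking kit. The submitters' processing notes name Bowtie2 2.2.8, HISAT2, StringTie 1.3.1 and Cuffdiff 2.1.1. For the calls of differential expression the authors name Cuffdiff in one place and edgeR in another, and which tool made the deposited lists is not given in the sources used here. The genome build and annotation are not given in the sources used here. The authors called differentially expressed genes at an adjusted p-value threshold of 0.05 and deposited, for each comparison, tables of GO terms and KEGG pathways with how many genes of each were listed, how many stood in the background, and which identifiers were listed. The enrichment p-values that the authors deposited in these tables were not used.

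Each gene list was rebuilt as the union of identifiers over all GO rows, and held as many genes as the total that the table states. All 45 members and 116 genes of the other lists were found by symbol, 160 of 161 by the current symbol and 1 by an older one. Every member was named, as were genes of the other lists found in both cell lines or in neither, with at most 4 per list from those in 1, except for 4 clock genes and RDH16, which were named after their values had been seen. A few genes first placed in these lists, 5 in all, were not used here, whatever their listing, and the counts leave them out. The members and lists were chosen with earlier results of these data known, and the paralog sets and some GO terms and KEGG pathways after the values had been seen. Transcript lengths and exons came from GENCODE release 29 and promoters from RefSeq. Scripts used Python 3.11.15, SciPy 1.17.1 and matplotlib 3.10.9, and were tested on simulated data. Read depth is not given in the tables, and no test was made.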

Additional observations from a re-analysis of the deposited data

How the results depend on the processing

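With KEGG read alone, counts of listed nuclear receptors stayed within 1.5 times of the reported values of 12 (HepG2), 15 (Huh7) and 7 (both). They also did so when only biological process or only molecular function rows were read, and when KEGG was added. The same held without THRA and NR1D1 or without NR0B1 and NR0B2. These other settings could hardly have moved the counts, so they say little about how firm the counts are. Every listed member stands under terms of both kinds, adding KEGG cannot lower a count, and each dropped pair is small. Without all 15 members that overlap a gene on the opposite strand, the counts were 6 in HepG2 cells and 3 in both, from fewer genes. That alternative was chosen after seeing the data, and with it the HepG2 share turned from above to below that of all genes. The share of all genes listed was 23.9% in HepG2 and 21.9% in Huh7 cells over protein-coding genes, and 23.5% and 20.8% over transcription factors, which was also chosen after seeing the data. For single groups and lists, reading KEGG alone moved 8 of 42 counts by more than 1.5 times, each to a lower value. Orphan receptors dropped to 0 in HepG2 and 1 in Huh7 cells, and estrogen receptor targets to 1 and 0. Thyroid hormone targets dropped to 0 in both cell lines. In HepG2 cells alone, clock partners and targets dropped to 4, and retinoic acid and vitamin D targets to 1. Reading only biological process or only molecular function rows moved 1 of 42 each, estrogen receptor targets in HepG2 cells. No paired analysis was possible because no expression level is given for any library, and no library could be left out for the same reason. Protein features had been planned and were not run, as no protein sequences were at hand. Depth, direction and level of expression are not in the tables.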

Other observations

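The GO term for regulation of bile acid biosynthetic process had 6 of 11 genes listed in HepG2 (54.5%) and 5 of 11 in Huh7 cells (45.5%), beside 21.6% and 19.7% of all genes. The term and its genes were chosen after the counts had been seen. NR1H4 and NR1D1 were listed under it in both cell lines. HepG2 cells had CYP7A1, the first enzyme of the main pathway, with the deacetylase SIRT1, the cholesterol transport protein STAR and MALRD1, a gene linked to FGF19 production. Huh7 cells had FGF19 itself and FGFR4, its receptor on hepatocytes, with PROX1, a transcription factor that represses CYP7A1.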
